A study of Mus musculus with 8 samples.

Results

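Sox1, Sox2, Sox3, Sox21, Sox4, Sox11 and Sox12 are the Sox transcription factor genes of groups B and C that are used by neural cells. They were picked by symbol through their Entrez numbers, and all 7 were present among the 27179 genes of the count matrix. RNA was measured in the embryonic mouse cerebral cortex of 4 Taf8-deleted embryos, which carry a null and a lox allele (Taf8 -/lox), and of 4 wild-type embryos (Taf8 +/+). The protein made from Taf8 is part of TFIID, which recognises core promoters and helps to place RNA polymerase II on them. Neither the embryonic day nor the Cre driver of the lox allele was stated in the sources used here. Every library came from its own embryo. In the animal numbers, the digits before the point are the same for wild-type replicates 1 to 3 and differ for every other embryo. If they mark litters, litter and genotype cannot be told apart.

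SOX proteins bind DNA through a high-mobility-group box and act together with partner factors such as POU and PAX proteins. SOX1, SOX2 and SOX3 form group B1, which keeps neural progenitors from differentiating. SOX21, of group B2, has been shown in chick to repress genes that group B1 proteins activate. SOX4, SOX11 and SOX12 form group C, which is abundant in cells that have left the progenitor state and in young neurons, where SOX4 and SOX11 activate neuronal genes.

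Levels are given as CPM, reads scaled to the size of each library, and comparisons between genes use TPM, which also divides by gene length. Totals were 26312505 to 52777170 counts in Taf8-deleted libraries and 30601897 to 65523487 in wild-type libraries. Taf8 itself averaged 0.643 ± 0.149 CPM in Taf8-deleted cortex and 34.8 ± 2.75 CPM in wild-type cortex (SD, n = 4 each). Cortical identity was checked with Emx1, Emx2, Lhx2, Tbr1 and Neurod6, all expressed in both groups but not at equal levels. Neurod6, Tbr1 and Emx1 were lower in Taf8-deleted cortex (log2 fold changes of -1.36, -0.38 and -0.28). Lhx2 was higher (0.22), and Emx2 did not differ (-0.02). Ganglionic eminence and interneuron markers summed to 1107 to 1146 CPM in Taf8-deleted libraries and 1280 to 1484 CPM in wild-type libraries. Nkx2-1, a marker in that sum, was at 64.3 ± 2.63 CPM in Taf8-deleted and 74.7 ± 7.88 CPM in wild-type samples (SD, n = 4 each). These checks thus do not show that the samples hold cortex alone. Markers of midbrain, hindbrain and cord summed to 5.64 to 8.24 CPM in Taf8-deleted libraries and 4.79 to 10.7 CPM in wild-type libraries, and Hoxa2 was at 0. Most of that sum is Gbx2, at 6.24 ± 0.986 CPM in Taf8-deleted and 6.08 ± 2.73 CPM in wild-type samples. In whole tissue, fewer cells of a type and less RNA per cell cannot be told apart.

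Promoters from the RefSeq table of GRCm38.p6 were matched for 6 of the 7 genes, Sox3 being the exception. They are shown because TAF8 works at core promoters and because members of 1 group differed in their response. The 4 shown are those of Sox21 (chr14:118236981-118237280, minus strand), Sox2 (chr3:34649745-34650044, plus strand), Sox12 (chr2:152397997-152398296, minus strand) and Sox4 (chr13:28953650-28953949, minus strand). Sox21 and Sox12 changed most among the 6, and Sox2 and Sox4 changed least in the same groups. Each runs 5′ to 3′ on the strand of the gene from 250 bases before the start to 50 bases from it on. Capitals mark the CCAAT box, searched as CCAAT on both strands, and the octamer of POU factors, searched as ATGCAAAT on both strands.
Sox21: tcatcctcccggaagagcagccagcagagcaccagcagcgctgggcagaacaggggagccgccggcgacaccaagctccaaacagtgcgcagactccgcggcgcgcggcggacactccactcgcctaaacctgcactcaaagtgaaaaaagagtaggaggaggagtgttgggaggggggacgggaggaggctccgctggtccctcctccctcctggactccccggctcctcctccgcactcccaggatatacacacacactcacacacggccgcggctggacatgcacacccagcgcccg
Sox2: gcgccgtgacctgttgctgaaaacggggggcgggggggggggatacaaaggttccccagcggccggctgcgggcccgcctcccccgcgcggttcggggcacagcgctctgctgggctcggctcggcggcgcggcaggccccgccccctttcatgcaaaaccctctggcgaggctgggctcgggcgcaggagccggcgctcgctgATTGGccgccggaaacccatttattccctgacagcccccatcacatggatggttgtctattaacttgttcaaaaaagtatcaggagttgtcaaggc
Sox12: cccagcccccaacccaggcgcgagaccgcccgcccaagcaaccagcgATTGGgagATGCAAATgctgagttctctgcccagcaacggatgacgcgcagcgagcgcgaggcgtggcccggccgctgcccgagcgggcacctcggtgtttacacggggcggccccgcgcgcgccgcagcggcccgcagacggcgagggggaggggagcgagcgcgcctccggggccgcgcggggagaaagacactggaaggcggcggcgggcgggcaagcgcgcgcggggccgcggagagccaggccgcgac
Sox4: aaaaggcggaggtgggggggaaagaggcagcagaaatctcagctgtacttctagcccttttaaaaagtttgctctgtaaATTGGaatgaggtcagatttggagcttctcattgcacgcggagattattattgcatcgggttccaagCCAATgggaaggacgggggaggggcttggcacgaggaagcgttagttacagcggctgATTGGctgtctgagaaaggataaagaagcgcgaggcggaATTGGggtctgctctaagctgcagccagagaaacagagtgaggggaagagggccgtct

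None of the 6 promoters held the TATA box letters TATAAA on either strand, letters that 13.6% of the 32851 RefSeq promoters held. A CCAAT box was in 5 of the 6, with 4 copies in Sox4 and 0 in Sox21, against 37.4% of all promoters. The octamer was in 2, Sox12 at 195 bases before the start and Sox1 at base 19, against 1.74% of all promoters. It was searched after these sequences had been read. A SOX site, searched as ACAAAG or ACAATG on both strands, was in Sox2 alone and in 28.6% of all promoters. GC content ran from 52.0% in Sox4 to 76.7% in Sox12, and its median over all promoters was 52.7%. In GENCODE the largest exon number of any transcript is 1 for 6 of the 7 genes and 2 for Sox12. The deposited length of Sox12 equals its RefSeq span, at 4436 bases, which leaves no room for an intron in that form.

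In Taf8-deleted cortex 3 of the 4 group B genes rose and all 3 group C genes fell, by very unequal amounts. Sox3 and Sox21 rose, to 219% and 141% of wild-type, and Sox12 fell to 58.4%. Sox1, Sox4 and Sox11 passed the test with changes under 1.2-fold, and Sox2 did not pass. In all, 3 members were higher and 3 were lower, by edgeR's quasi-likelihood test at a Benjamini-Hochberg adjusted p under 0.05. In the same test 29.5% of the 15649 genes were higher and 29.6% were lower, 59.2% in all, so calls were frequent everywhere and 6 of 7 is not read as particular to these genes. All 7 members passed the filter on low counts. When the change had to exceed 1.2-fold, Sox3, Sox21 and Sox12 passed, against 29.6% of all genes, 14.7% higher and 14.9% lower.

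Sox3, a single-exon gene on the X chromosome (60891366 to 60893430, minus strand, mm10), changed most. It had 186.7, 240.5, 242.4 and 220.2 CPM in the Taf8-deleted libraries, against 113, 111.5, 76.0 and 106 CPM in the wild-type libraries. Every Taf8-deleted library was above every wild-type library, and the lowest wild-type value was that of replicate 3. The log2 fold change was 1.13 (SE 0.125, adjusted p = 2.49e-05 by edgeR), larger than that of all but 745 of the 15649 genes. Sox3 is X-linked, so the sex of the embryos was read from Ddx3y and Xist. The RNA of Ddx3y, from the Y chromosome, was present at 42.2 to 48.4 CPM in Taf8-deleted libraries and 41.5 to 53.8 CPM in wild-type libraries. Every library thus held Y chromosome RNA, as male embryos do. Xist, which marks an inactive X, was at 0.357 to 0.812 CPM in Taf8-deleted libraries and 0.0525 to 0.174 CPM in wild-type libraries. These levels are 11 to 43 counts and 2 to 7 counts. 

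Sox1 and Sox2, the other group B1 genes, differed little between the groups. Sox2 (chromosome 3, 34649995 to 34652461) had 252.6, 258.7, 272.2 and 288.8 CPM in Taf8-deleted libraries, against 248.2, 273.4, 225.9 and 240.1 CPM in wild-type libraries. The groups overlapped, with wild-type replicate 2 above 3 of the Taf8-deleted libraries, and the log2 fold change was 0.12 (SE 0.0632, adjusted p = 0.128 by edgeR). Without wild-type replicate 2 it was 0.15 and just passed (adjusted p = 0.0499 by edgeR). Sox1 (chromosome 8, 12395519 to 12399555) had 202, 199.4, 215.8 and 216.5 CPM in Taf8-deleted libraries, against 198.4, 197.3, 163.2 and 180.6 CPM in wild-type libraries. The Taf8-deleted values all lay above the wild-type ones, by as little as 1 CPM, and the log2 fold change was 0.17 (SE 0.0640, adjusted p = 0.0371 by edgeR). This call was lost when Taf8-deleted replicate 2, 3 or 4 or wild-type replicate 3 or 4 was left out, at 0.12 to 0.18 (adjusted p = 0.0526 to 0.113 by edgeR).

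Sox21 (chromosome 14, 118233233 to 118237030, minus strand), the group B2 gene, also rose. It had 101.6, 114.4, 112.7 and 114.5 CPM in Taf8-deleted libraries, against 92.7, 82.3, 66.9 and 73.6 CPM in wild-type libraries. The groups did not overlap, as for Sox1, Sox3 and, in the other direction, Sox12. Over all genes the share was 53.6%, with 26.6% higher and 27.0% lower in Taf8-deleted cortex. Sox21 changed by 0.49 on the log2 scale (SE 0.0887, adjusted p = 0.00074 by edgeR). Sox14, the second gene of group B2, was close to the detection floor and did not pass, at 0.635 ± 0.156 CPM in Taf8-deleted and 0.305 ± 0.198 CPM in wild-type cortex (SD, n = 4 each). Without wild-type replicate 3 its log2 fold change of 0.97 became 1.37 and passed (adjusted p = 0.0189 by edgeR). Wild-type replicate 3 was also the lowest of all 8 libraries for Sox1, Sox2, Sox3 and Sox21. Without it the log2 fold changes of Sox3 and Sox21 were 1.01 and 0.42, the lowest of any library left out, and both were still called (adjusted p = 3.67e-06 and 0.000595 by edgeR).

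Sox12 (chromosome 2, 152393611 to 152398046, minus strand) fell most of group C. Its product is a weaker activator than SOX4 and SOX11 in reporter assays. It had 175, 215, 218.5 and 224.2 CPM in Taf8-deleted libraries, against 372.7, 358.1, 332.7 and 362.8 CPM in wild-type libraries. The groups lay well apart, with Taf8-deleted replicate 1 the lowest. The log2 fold change was -0.78 (SE 0.0742, adjusted p = 9.05e-06 by edgeR), and 879 of the 15649 genes had a lower one.

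Sox4 and Sox11 had small decreases. Sox4 (chromosome 13, 28948919 to 28953699) had 1025, 1116, 1074 and 1068 CPM in Taf8-deleted libraries, against 1235, 1192, 1107 and 1140 CPM in wild-type libraries. The groups overlapped only through Taf8-deleted replicate 2, and the log2 fold change was -0.13 (SE 0.0416, adjusted p = 0.0231 by edgeR). The call was lost without wild-type replicate 1 (-0.11, adjusted p = 0.0575 by edgeR) and with library size alone or upper-quartile scaling (-0.08 and -0.10). Sox11 (chromosome 12, 27334268 to 27342718) had 1907, 1582, 1702 and 1884 CPM in Taf8-deleted libraries, against 1818, 2288, 2324 and 2020 CPM in wild-type libraries. Wild-type replicate 1 lay below 2 of the Taf8-deleted libraries. The log2 fold change was -0.26 (SE 0.0826, adjusted p = 0.0207 by edgeR).

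**Figure D1:**
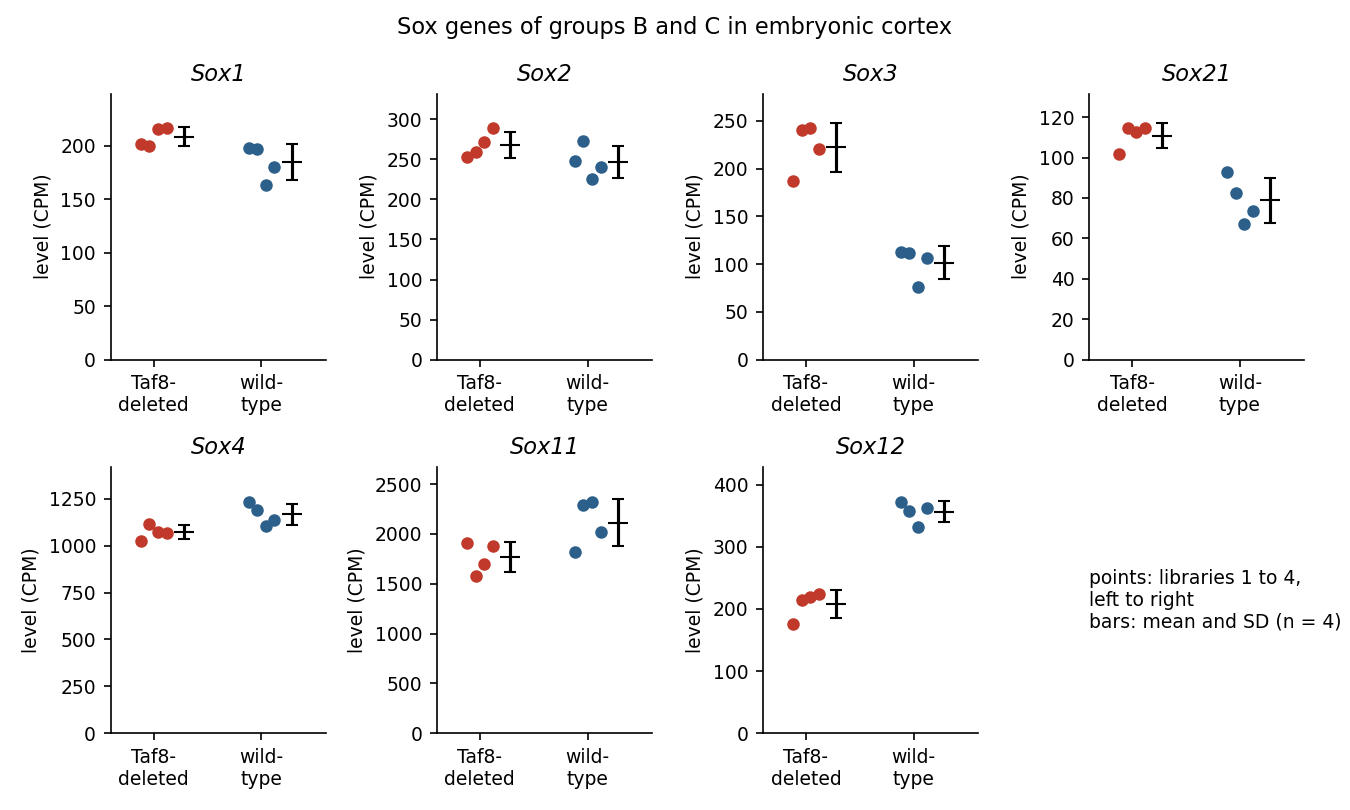
Level in CPM (vertical axes from 0) of the 7 Sox genes in the 4 Taf8-deleted libraries (red, left) and the 4 wild-type libraries (blue, right), with mean and SD beside the points. The groups lie apart for Sox3, Sox21 and Sox12, nearly touch for Sox1 and overlap for Sox2, Sox4 and Sox11.

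Markers of other cells also differed between the groups, in a table where 29.5% of all tested genes were higher and 29.6% lower. Of 11 tested meningeal fibroblast markers 6 were higher and 0 lower in Taf8-deleted cortex, and their summed level was 238.7 to 347 CPM in Taf8-deleted libraries and 163.8 to 237.2 CPM in wild-type libraries. Most of that sum is Zic1, which brain cells also express. The fibroblast collagen gene Col3a1 was at 15.1, 44.0, 51.0 and 6.64 CPM in Taf8-deleted libraries and at 4.38 to 10.6 CPM in wild-type libraries. Taf8-deleted replicate 4 lay inside the wild-type range for Col3a1 and for the mean log2 CPM of the 11 markers (1.44, against 1.2 to 2.32 in wild-type libraries). It lay above that range for the summed level, for the marker Crabp2 (16.6 CPM, against 6.46 to 12.2 CPM in wild-type libraries) and for the summed endothelial markers (265.4 CPM, against 220.2 to 238.1 CPM). That library alone against the 4 wild-type libraries gave log2 fold changes of 1.12 for Sox3, 0.54 for Sox21 and -0.67 for Sox12. A lone library shows no spread of its own group, so no call is read from that fit. The calls of Sox1, Sox4 and Sox11 were lost with the meningeal level as a covariate, where Sox11 was at -0.14 (adjusted p = 0.251 by edgeR). With the covariate 2 members, Sox3 and Sox21, were higher and 1, Sox12, was lower, 3 of 7 in all, against 24.1% higher and 24.3% lower of all genes, 48.3% in all.

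Markers of neurons, progenitors and other cells of the brain differed as well. Of 20 pan-neuronal markers 16 were lower and 1, Nefm, was higher, with a median log2 fold change of -0.37 against 0.01 over all genes. Their summed level was 7708 to 8521 CPM in Taf8-deleted libraries and 9578 to 11263 CPM in wild-type libraries. Of 18 radial glia markers 8 were higher and 7 lower (median -0.02), and among 13 markers of intermediate progenitors, 6 rose and 5 fell (median 0.05). Ganglionic eminence and interneuron markers had 3 of 14 higher and 10 lower, and oligodendrocyte precursor markers 0 of 6 higher and 3 lower. Microglia markers had 5 of 10 higher and 1 lower, red cell markers 5 of 7 higher and 0 lower, and Cajal-Retzius markers 4 of 7 higher and 1 lower. Choroid plexus markers had 1 of 9 higher and varied between libraries, from 19.0 to 1233 CPM in Taf8-deleted and from 25.1 to 420.4 CPM in wild-type cortex. Beside all these lists, 29.5% of all tested genes were higher and 29.6% lower. The part that cell composition has in the Sox levels was not tested.

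Within a library the ratio of 2 members does not depend on how the library is scaled, so ratios show whether members changed by unequal amounts. Of 9 pairs compared within groups B and C, 7 had ratios that differed between Taf8-deleted and wild-type libraries (exact two-sided permutation p = 0.0286 for each, the smallest that 70 permutations can give; Benjamini-Hochberg adjusted p = 0.0367 over the 9). Single genes did not overlap between the groups in 53.6% of the table, and the share for pairs of other genes was not computed, so the count of pairs is not read as particular to these genes. Sox3 had 0.739, 0.930, 0.891 and 0.763 counts per count of Sox2 in Taf8-deleted libraries, against 0.455, 0.408, 0.337 and 0.442 in wild-type libraries, a 2.03-fold difference. The ratio of Sox3 to Sox1 differed 1.95-fold and that of Sox3 to Sox21 1.56-fold. Sox21 gained 1.3-fold on Sox2 and 1.25-fold on Sox1. In group C, Sox12 lost 1.58-fold against Sox4 and 1.44-fold against Sox11. The Sox4 to Sox12 ratio was 5.86, 5.19, 4.91 and 4.76 in Taf8-deleted libraries, against 3.31, 3.33, 3.33 and 3.14 in wild-type libraries.

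The other 2 pairs did not pass. The Sox1 to Sox2 ratio was 0.750 to 0.800 in Taf8-deleted libraries and 0.722 to 0.799 in wild-type libraries (difference 0.06 on the log2 scale, exact permutation p = 0.229, adjusted p = 0.257). The Sox4 to Sox11 ratio was 0.537 to 0.706 in Taf8-deleted and 0.476 to 0.679 in wild-type libraries (difference 0.13 on the log2 scale, exact permutation p = 0.371, adjusted p = 0.371).

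**Figure D2:**
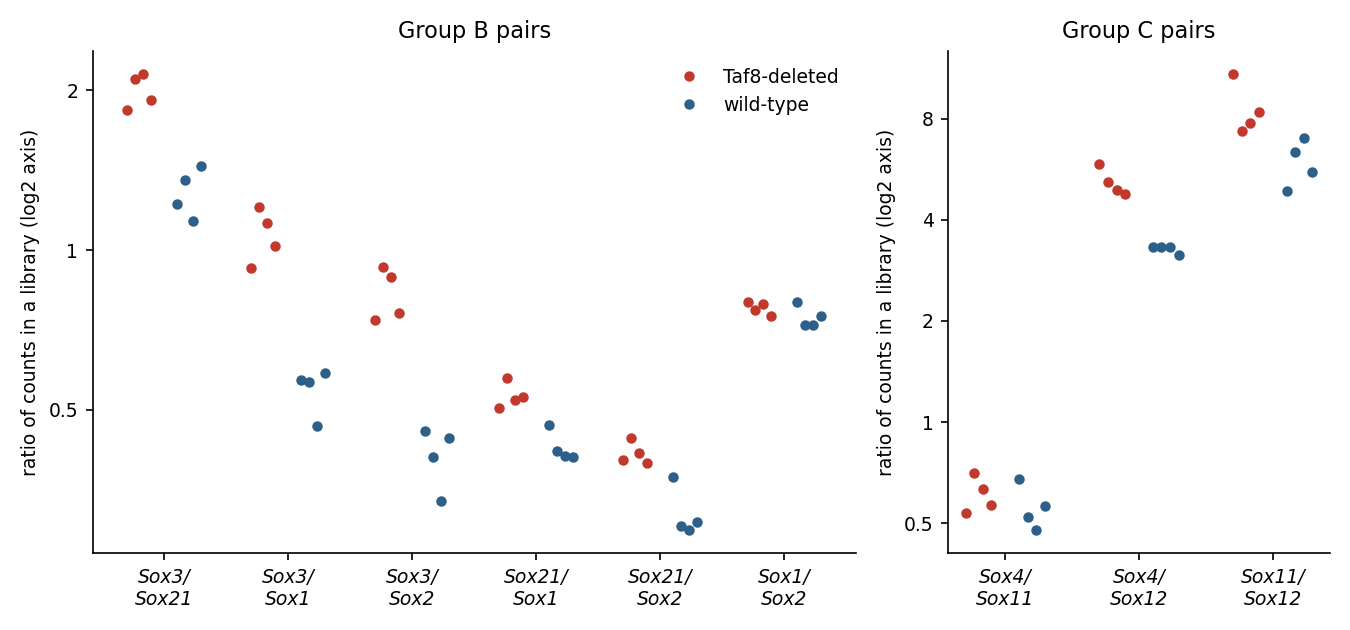
Ratio of counts of 2 members in each library (log2 axes) for the 6 group B pairs and the 3 group C pairs, with Taf8-deleted libraries in red on the left of each pair and wild-type libraries in blue on its right. All pairs that hold Sox3, Sox21 or Sox12 separate the groups, while Sox1/Sox2 and Sox4/Sox11 overlap.

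Per length, the members stood in a different order in the 2 groups. In Taf8-deleted cortex the mean TPM was 931 for Sox4, 540.1 for Sox11, 281.6 for Sox2, 278 for Sox3, 133 for Sox1, 121 for Sox12 and 75.3 for Sox21. In wild-type cortex it was 1009 for Sox4, 641 for Sox11, 257 for Sox2, 206 for Sox12, 126 for Sox3, 117 for Sox1 and 53.2 for Sox21. Sox2 and Sox3 overlapped in Taf8-deleted libraries (267 to 300.2 and 235 to 305 TPM), as did Sox1 and Sox12. In wild-type libraries Sox3 and Sox1 overlapped (95.5 to 139.7 and 105 to 125 TPM), while Sox2 was above Sox12 in all 4 (238 to 283 and 194.5 to 214 TPM). The deposited length of Sox4 is 2967 bases where RefSeq spans 4781, and the order of Sox4 and Sox11 depends on it. With the RefSeq span, chosen as an alternative after seeing the data, Sox4 averaged 578 TPM in Taf8-deleted and 626 TPM in wild-type cortex. If reads were counted over the deposited 2967 bases only, dividing by 4781 sets Sox4 too low. This alternative therefore cannot show which order holds. With that span Sox4 overlapped Sox11 in both groups, and the mean of Sox4 was below that of Sox11 in wild-type cortex (641 TPM).

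Of the summed group B1 level, Sox3 made up 37.2%, 43.0%, 41.7% and 38.4% in Taf8-deleted libraries, against 26.7%, 25.2%, 21.8% and 26.5% in wild-type libraries. The 3 genes together came to 693 ± 43.2 TPM in Taf8-deleted and 500.5 ± 45.6 TPM in wild-type cortex (SD, n = 4 each). Group C came to 1593 ± 18.5 TPM in Taf8-deleted and 1855 ± 49.9 TPM in wild-type cortex, and Sox12 made up 7.6% of it in Taf8-deleted and 11.1% in wild-type cortex. With the RefSeq span of Sox4 the group C sum was 1240 ± 25.8 TPM in Taf8-deleted and 1473 ± 53.2 TPM in wild-type cortex. This sum is too low if reads were counted over the deposited length only. These sums are descriptions of the 7 genes and were not tested.

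**Figure D3:**
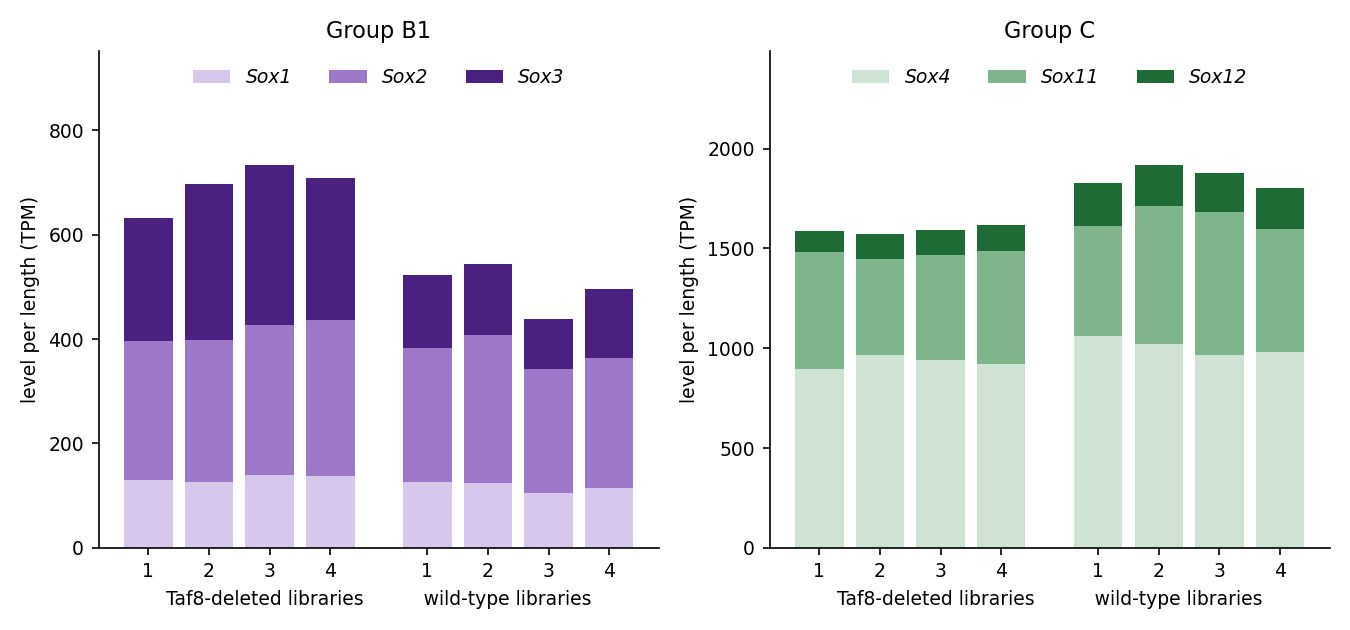
Level per deposited length (TPM) of the group B1 genes (left panel) and the group C genes (right panel), stacked, in each Taf8-deleted library (left bars) and wild-type library (right bars). The Sox3 segment is 235 to 305 TPM in Taf8-deleted libraries and 95.5 to 139.7 TPM in wild-type libraries, and the Sox12 segment is 102 to 129 TPM and 194.5 to 214 TPM.

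Long noncoding genes overlap Sox1 and Sox2 on the same strand. Sox1ot (chromosome 8, 12385771 to 12436732), whose span holds Sox1, fell while Sox1 did not. It had 49.3, 43.5, 48.0 and 44.7 CPM in Taf8-deleted libraries, against 107, 103, 91.3 and 100.5 CPM in wild-type libraries. The groups lay far apart, and Sox1ot changed by -1.12 on the log2 scale (SE 0.0594, adjusted p = 2.03e-07 by edgeR). Sox2ot (chromosome 3, 34560381 to 34677993), whose span holds Sox2, had 62.6, 57.7, 43.2 and 61.4 CPM in Taf8-deleted libraries and 69.7, 73.6, 51.3 and 69.1 CPM in wild-type libraries. It did not pass the test (log2 fold change -0.22, adjusted p = 0.164 by edgeR), but did without wild-type replicate 3 (-0.33, adjusted p = 0.019 by edgeR). The sources used here do not say how reads in overlapping genes were counted, so reads could be split between these pairs. Beside Sox12, the neighbour Nrsn2 was lower by a log2 fold change of -0.35, and Zcchc3, on its other side, did not pass at 0.14. Mir1897, near Sox2, was at 0. Predicted genes that overlap Sox21 and Sox4, and the other nearest genes, are not in the count matrix, so they have no values here. Among them Gm38438, a long noncoding gene on the plus strand, lies 222 bases from Sox3.

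Of the 13 Sox genes outside the 7, 11 were tested, and 4 were higher and 3 lower in Taf8-deleted cortex. Over all tested genes 29.5% were higher and 29.6% lower, 59.2% in all, so this count is not read as particular to Sox genes. Among group D genes, which lack an activation domain, Sox5 fell to 133 ± 9.86 CPM in Taf8-deleted cortex, against 288 ± 33.3 CPM in wild-type cortex (log2 fold change -1.12). Sox13 rose to 48.6 ± 4.07 CPM, against 27.2 ± 3.21 CPM (0.84), and Sox6 did not pass at 0.07. In group E, which serves glia and neural crest, Sox9 rose to 163 ± 5.82 CPM, against 112 ± 12.5 CPM (0.54). Sox8 fell to 30.5 ± 1.35 CPM in Taf8-deleted cortex, against 39.9 ± 2.37 CPM in wild-type cortex, and Sox10, of oligodendrocyte precursors, fell to 0.752 ± 0.126 CPM, against 1.86 ± 0.187 CPM (SD, n = 4 each).

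The genes of group F mark endothelium, and 1 of 3 passed. Sox17 was at 4.50 ± 0.537 CPM in Taf8-deleted and 3.41 ± 0.555 CPM in wild-type cortex (log2 fold change 0.39, adjusted p = 0.0314 by edgeR), a call lost without Taf8-deleted replicate 1, 2 or 3 or wild-type replicate 1 or 3 (0.31 to 0.39). Sox18 and Sox7 were at 0.19 and 0.01 and did not pass. The sign for Sox7 turned when Taf8-deleted replicate 1, 3 or 4 or wild-type replicate 1 or 3 was left out (-0.09 to -0.00). Of 12 endothelial and pericyte markers 11 were higher and 0 lower, against 29.5% and 29.6% of all genes. Their summed level was 265.4 to 338 CPM in Taf8-deleted and 220.2 to 238.1 CPM in wild-type libraries. Sox30 rose at a low level, 1.32 ± 0.176 CPM in Taf8-deleted and 0.758 ± 0.258 CPM in wild-type cortex. Sox15 was under the filter and Sry was at 0. With the meningeal level as a covariate, 2 of the 11 tested were higher, Sox13 and Sox9, and 3 lower, against 24.1% and 24.3% of all tested genes.

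**Figure D4:**
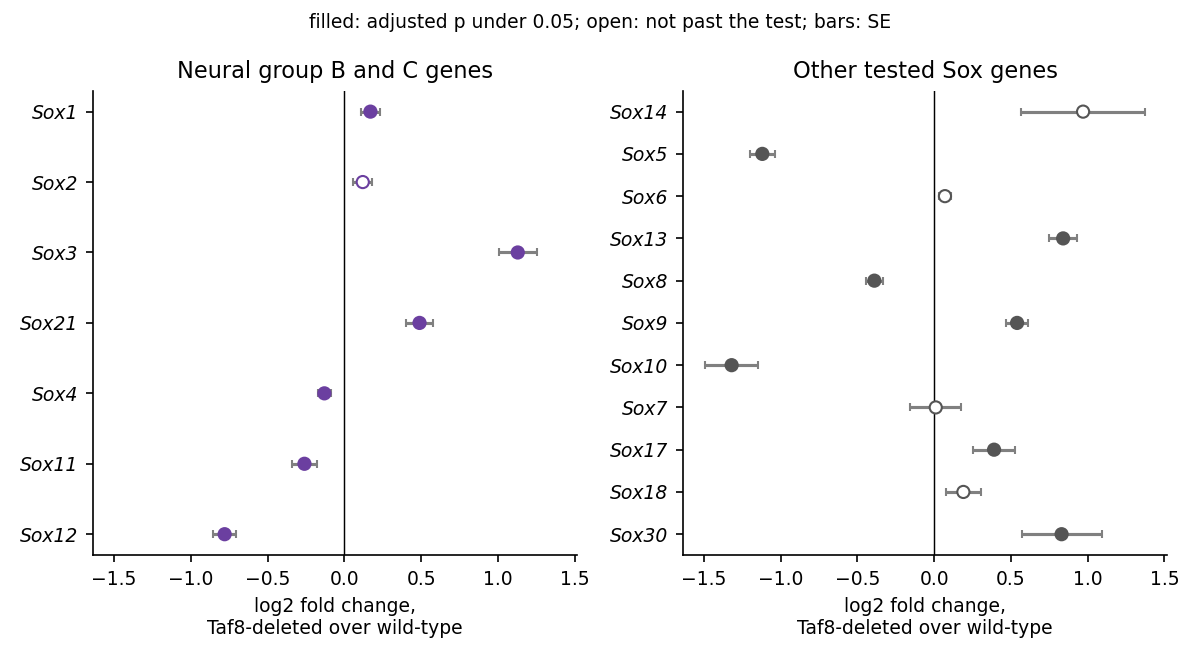
Log2 fold change of Taf8-deleted over wild-type cortex (horizontal axis, bars are SE) for the 7 Sox genes of groups B and C (left) and the 11 other tested Sox genes (right), with filled points past an adjusted p of 0.05. Values run from -0.78 for Sox12 to 1.13 for Sox3 on the left and from -1.32 for Sox10 to 0.97 for Sox14 on the right.

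Genes that work beside the SOX proteins were taken from a list of 9 POU and PAX factors. In Taf8-deleted cortex 6 were lower and 1 was higher, with a median log2 fold change of -0.45. Among all tested genes 29.6% were lower and 29.5% higher, with a median of 0.01. Pou3f2, whose product binds neural enhancers next to SOX proteins, fell to 78.7 ± 11.1 CPM in Taf8-deleted cortex, against 127 ± 14.6 CPM in wild-type cortex. Pou3f1 fell to 41.5 ± 0.940 CPM, against 60.8 ± 4.26 CPM, and Pou6f1 fell to 134 ± 6.59 CPM, against 178 ± 5.18 CPM. Pax6, a partner of SOX2 in the eye and a factor of cortical radial glia, was the gene that rose, at 152 ± 10.1 CPM in Taf8-deleted and 110.5 ± 5.59 CPM in wild-type cortex (log2 fold change 0.46, adjusted p = 4.51e-05 by edgeR).

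Of 14 genes reported as targets of group B1 proteins 13 were tested, and 7 were higher and 3 lower, with a median of 0.31. The shares of all tested genes were 29.5% higher and 29.6% lower, with a median of 0.01. Nes, the progenitor filament gene with a well-known SOX and POU enhancer, rose to 979 ± 34.9 CPM in Taf8-deleted cortex, against 515 ± 42.2 CPM in wild-type cortex. The filament gene Vim rose to 1226 ± 92.3 CPM, against 809 ± 65.8 CPM, and the nuclear receptor gene Nr2e1, which keeps neural stem cells cycling, rose to 200.5 ± 7.37 CPM, against 143 ± 13.4 CPM. The lower genes were the lipid carrier gene Fabp7 (336 ± 27.3 CPM in Taf8-deleted and 480 ± 5.56 CPM in wild-type cortex), the receptor gene Egfr (1.23 ± 0.300 and 3.59 ± 0.588 CPM) and the cyclin gene Ccnd1 (87.5 ± 10.5 and 144 ± 20.7 CPM).

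Of 11 genes reported as targets of group C proteins 6 were lower and 1 was higher, with a median of -0.24. Again, 29.6% of all tested genes were lower and 29.5% higher, with a median of 0.01. Fezf2, a factor of deep-layer projection neurons, fell to 77.6 ± 3.00 CPM in Taf8-deleted cortex, against 129 ± 4.96 CPM in wild-type cortex. The microtubule gene Dcx fell to 1057 ± 120.3 CPM, against 1734 ± 279 CPM, and Stmn2 fell to 469 ± 24.6 CPM, against 628 ± 62.0 CPM. Tubb3, a neuronal tubulin gene, was at 1639 ± 73.0 CPM in Taf8-deleted and 1688 ± 35.5 CPM in wild-type cortex and did not pass (log2 fold change -0.04, adjusted p = 0.329 by edgeR). The higher gene was Neurog2 (log2 fold change 0.25, adjusted p = 0.030 by edgeR), a call lost without Taf8-deleted replicate 3 or 4 or wild-type replicate 1, 3 or 4 (0.20 to 0.23). These 3 lists overlap the radial glia and neuronal markers, and binding was not measured.

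**Figure D5:**
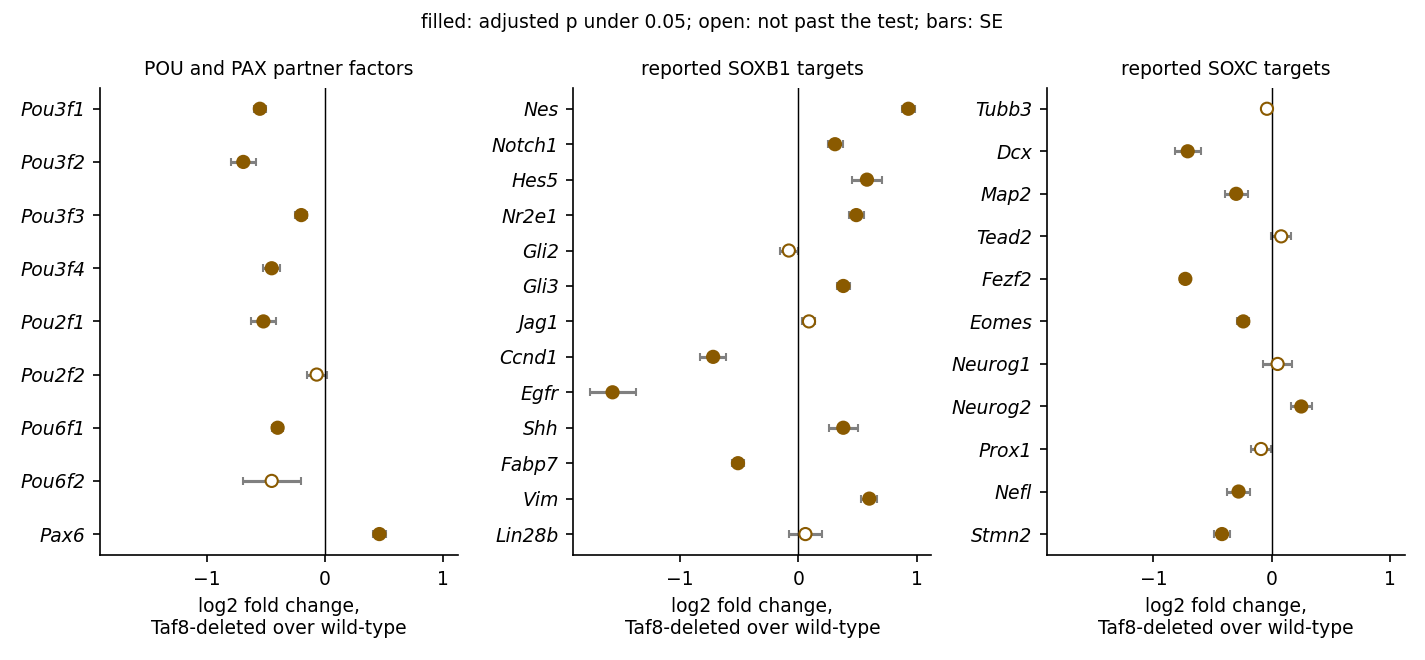
Log2 fold change of Taf8-deleted over wild-type cortex (horizontal axes, bars are SE) for tested POU and PAX factors, reported SOXB1 targets and reported SOXC targets, with filled points past an adjusted p of 0.05. Called values run from -0.69 to 0.46 in the first panel, from -1.57 to 0.93 in the second and from -0.73 to 0.25 in the third.

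The genes whose level followed each member most closely over the 8 libraries were found by Pearson correlation of log2 CPM among 11130 genes, as a description with no test, since all 8 libraries share the same 2 groups. Sox3 was followed by Cox18, Sec23b and Mzt2 (r = 0.997 to 0.998), and Sox21 by Coq6, Zfp629 and Taf1c (r = 0.988 to 0.990). Sox12 was followed by the ganglioside enzyme gene B4galnt1, the orphan receptor gene Gpr27 and the ephrin gene Efna2 (r = 0.997 to 0.999), which had log2 fold changes of -0.46, -0.57 and -0.55. Sox2 was followed by Neurog2, Ccna2 and Pnoc (r = 0.932 to 0.946) and Sox1 by Ehd4, Gas1 and Tssc4 (r = 0.967 to 0.970). Sox4 was followed by Gga2, Cox10 and Git1 (r = 0.983 to 0.986) and Sox11 by Skil, Rdx and Rps6 (r = 0.970 to 0.973). None of these 21 genes is another member of the 7.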

How the data were processed

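Stranded poly(A) libraries were made from RNA of 8 cortices, per the labels' protocols. The deposited values are raw counts per Entrez gene, made with Subread 1.5.0 and featureCounts on mm10, per the submitters' processing notes. The sources used here do not give the annotation, the strand setting or the treatment of overlapping genes. Per the file headers, the authors also deposited a gene length. The matrix and the single-sample counts differed in 0 places. Symbols and positions came from RefSeq (GRCm38.p6, the sequence of mm10). Exon numbers came from GENCODE, as the largest number of any transcript of the gene.

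Counts were filtered with filterByExpr, scaled by TMM and tested for genotype by the quasi-likelihood F-test of edgeR 4.0.16 (R 4.3.3, Benjamini-Hochberg over 15649 genes). SE is the log2 fold change over the square root of F. TPM uses the deposited length. Pair ratios used exact permutation tests (scipy 1.17.1). The edgeR fit was run on simulated counts with a far smaller share of changed genes than was called here. The pair ratios and the covariate fit were not tested in that way. 3 counts correspond to 0.0458 to 0.114 CPM, which covers counting error only.

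Alternatives were other scalings, filters and thresholds, DESeq2 1.42.0, limma 3.58.1 voom, a replicate block, a meningeal covariate and libraries left out. Fits with 1 library in a group and a longer Sox4 length were added after seeing the data. The members and lists were chosen with earlier results of these data known. Genes are named by a rule: Taf8, the members, all other tested Sox genes, the overlapping or nearest genes, up to 3 per direction of the partner and target lists by adjusted p, up to 2 per marker list, and the 3 most correlated genes of each member. Emx1, Emx2, Lhx2, Tbr1, Neurod6, Nkx2-1, Hoxa2, Col3a1, Nefm, Zic1, Crabp2, Xist, Ddx3y and Tubb3 were named after their values were seen. Some genes of the cortical identity list are not reported here.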

Additional observations from a re-analysis of the deposited data

Results flagged for a closer look

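Sox21 had 101.6 CPM in Taf8-deleted replicate 1, far from the 112.7 to 114.5 CPM of the other 3 Taf8-deleted libraries and still above the highest wild-type value of 92.7 CPM. It was the only such library among 14 groups of 4 examined, and chance gives about 1 in 20.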

How the results depend on the processing

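Sox3, Sox21 and Sox12 kept their direction under all 23 alternatives (log2 fold changes of 1.01 to 1.2, 0.42 to 0.57 and -0.83 to -0.67), and no member changed sign under any. Sox3, Sox21 and Sox12 also kept their call in every alternative with more than 1 library in each group. Sox1, Sox4 and Sox11 lost their calls in the test against a 1.2-fold change and at an adjusted p under 0.01, with values unchanged (0.17, -0.13 and -0.26), which left 1 member lower. They also lost them with the meningeal covariate (0.18, -0.14 and -0.14, 1 member lower). Their values were 0.23, -0.13 and -0.17 with Taf8-deleted replicate 4 alone and 0.18, -0.12 and -0.22 against wild-type replicate 4 alone. No call is read from these fits with 1 library in a group. Sox4 lost its call with upper-quartile scaling (-0.10) and library size alone (-0.08), where Sox2 passed (0.16). The median log2 fold change of all genes was 0.039 with upper-quartile scaling and 0.052 with library size alone, against 0.010 with TMM. The cause of the changed calls was not tested. With 1 library left out, log2 fold changes were 0.12 to 0.20 for Sox1, 0.07 to 0.15 for Sox2 and -0.16 to -0.11 for Sox4. Over all genes the 1.2-fold test called 2307 higher and 2328 lower, against 4624 and 4633. Taf8-deleted replicate 4 alone gave 2171 and 2459, and wild-type replicate 4 alone gave 2808 and 3492. Those fits have fewer samples. Same-numbered libraries did not deviate together (correlations of -0.456 to 0.000, and 0 of 4 Taf8-deleted libraries correlated best with its own number). No pairing by number was seen, though so few libraries could not show a weak one. With the number as a replicate block Sox1, Sox4 and Sox11 lost their calls (0.18, -0.13 and -0.25, 1 member lower, and 4115 genes higher and 4170 lower in all). The ratios cannot reach a p under 0.05 with a library left out or a paired sign-flip test, so those tests were not run, and the differences kept their sign with each library left out.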

Other observations

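Single-exon genes, the form that 6 of the 7 Sox genes have, were called in unequal directions. Of 393 tested genes with 1 exon in GENCODE, 162 (41.2%) rose and 74 (18.8%) fell in Taf8-deleted cortex, with a median log2 fold change of 0.17. Of 13888 tested genes with more exons, 28% were higher and 31.3% lower (median -0.01). Tested genes with no exon number in GENCODE are in neither set, and their calls were not compared. The skew is therefore not read as particular to single-exon genes, and the gene families among them were not set apart. The 6 single-exon Sox genes ran from -0.26 for Sox11 to 1.13 for Sox3.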
